A study of Homo sapiens with 4 samples.

Results

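Of the 60683 genes in the tables of 4 RNA libraries, 29 are protein-coding adhesion G protein-coupled receptors with an ADGR symbol. The rule was the symbol, ADGR with a subfamily letter and a number, so the CELSR adhesion receptors are outside it. It was set with earlier results of these data known. The libraries came from HCT116, an established human colorectal carcinoma line, whose cells all carried a pSin lentivirus and grew under puromycin at 5 µg per ml. In 2 libraries the virus was the empty vector and in the other 2 it delivered the whole coding sequence of the forkhead transcription factor gene FOXD2, so the only difference given by the labels is that insert. The cells were stable transduced populations of 1 line, with expression driven by the vector, and the labels do not say whether replicates were separate cultures. The p-values therefore measure the spread between these libraries, which may be technical. Of the series' assays only RNA sequencing was analysed here.

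Adhesion receptors join a long extracellular part, built from adhesion domains, to a membrane-spanning part that signals through G proteins. Most carry a GAIN domain that cuts the protein at its own proteolysis site. The fragments stay attached, and a short peptide behind the cut acts as a tethered agonist when the outer fragment is pulled or shed. In epithelia, nerve sheath and leukocytes these receptors bind neighbouring cells and matrix and pass mechanical contact on to cAMP or cytoskeletal signalling.

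The labels were checked first on FOXD2. Its level was 3.50 and 2.78 CPM (counts scaled to TMM-adjusted library size) in the empty vector libraries and 526.5 and 479.1 CPM in the FOXD2 libraries. Total counts lay between 14231338 and 15535817 per library. The lines were epithelial by their markers: the mean of EPCAM was 350.1 CPM without and 388.1 CPM with FOXD2, and that of KRT8 2235 and 4039 CPM, whereas the colon markers CDX1, LGR5, VIL1 and GPA33 were at or near 0 and CDX2 was at 17.6 and 12.4 CPM. The epithelial markers themselves moved: of 7 tested of 11, EPCAM (0.15), CDH1 (1.09), KRT8 (0.85), KRT18 (0.87) and KRT19 (1.04) rose on the log2 scale and CDX2 fell by 0.51 (edgeR adjusted p at most 0.021), beside 27.2% of all tested genes higher. Their summed level went from 4413 and 4545 CPM to 8346 and 7839 CPM. For leukocytes, in which several adhesion receptors are best known, the defining genes PTPRC and CD3E had no count in any library. The summed level of the 11 leukocyte markers was 5.51 and 6.36 CPM in the empty vector libraries and 43.7 and 36.6 CPM in the FOXD2 libraries, nearly all of it from the lysosomal gene CD68. Of 7 endothelial markers 1 was tested, VWF, which did not pass, CDH5 had no count, and the sum lay between 0.795 and 1.80 CPM over the libraries. Of 7 fibroblast markers 2 were tested and both, COL1A1 and ACTA2, were higher, with the sum at 13.2 and 15.0 CPM in the empty vector libraries and 41.1 and 40.7 CPM in the FOXD2 libraries, while COL1A2, DCN, LUM and PDGFRA had no count. The part of these markers in the results was not tested.

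Among the 29 receptors, 12 had enough counts to be tested, and 8 of these 12 changed: ADGRF1, ADGRA3, ADGRG6 and ADGRA2 fell, and ADGRB1, ADGRE5, ADGRE2 and ADGRG1 rose (edgeR adjusted p under 0.05). Over all 14470 genes tested, 53.5% passed, 27.2% as higher and 26.4% as lower, beside 66.7% of the tested receptors, 33.3% in each direction. At least 2-fold changes were found for 3 lower receptors and 1 higher one, where 2.8% of all genes were lower and 8.2% higher to that extent. The median log2 fold change of the 12 receptors was 0.34, against 0.01 over all genes. The median of its absolute size was 0.66, against 0.32.

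The promoters of the receptors that fell by at least 2-fold are shown because they differ widely in base composition while all 3 genes fell. Each window holds 250 bases before and 50 bases after the RefSeq start site on GRCh38.p14, read along the gene, with CG pairs in capitals. The ADGRF1 window (chr6:47042283-47042582, minus strand) holds 2 CG pairs at 48.3% GC. Those of ADGRA3 (chr4:22516017-22516316, minus strand) and ADGRG6 (chr6:142301757-142302056, plus strand) hold 40 and 36, at 78.3% and 75.3% GC. Over all 35116 windows of the RefSeq table the median was 14 CG pairs and 58.7% GC.
ADGRF1: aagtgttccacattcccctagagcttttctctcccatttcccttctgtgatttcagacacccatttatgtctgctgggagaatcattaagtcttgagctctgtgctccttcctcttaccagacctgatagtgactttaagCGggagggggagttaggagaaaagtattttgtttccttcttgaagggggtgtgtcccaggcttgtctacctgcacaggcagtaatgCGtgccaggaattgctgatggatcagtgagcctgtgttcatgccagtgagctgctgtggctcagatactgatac
ADGRA3: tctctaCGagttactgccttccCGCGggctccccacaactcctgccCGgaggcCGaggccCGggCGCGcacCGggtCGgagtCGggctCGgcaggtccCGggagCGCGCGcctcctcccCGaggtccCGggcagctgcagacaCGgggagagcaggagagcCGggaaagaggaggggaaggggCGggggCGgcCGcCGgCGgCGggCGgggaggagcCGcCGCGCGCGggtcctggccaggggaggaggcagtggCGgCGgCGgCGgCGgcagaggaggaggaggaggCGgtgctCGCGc
ADGRG6: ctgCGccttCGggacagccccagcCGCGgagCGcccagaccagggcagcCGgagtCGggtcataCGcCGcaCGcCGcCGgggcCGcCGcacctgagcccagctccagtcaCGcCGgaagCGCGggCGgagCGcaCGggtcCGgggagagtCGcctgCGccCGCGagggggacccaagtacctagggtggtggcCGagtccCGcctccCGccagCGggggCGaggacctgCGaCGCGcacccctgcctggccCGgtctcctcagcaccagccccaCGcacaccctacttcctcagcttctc

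Forkhead core motifs were searched in the same windows, as TGTTTAC and TATTTAC on both strands. The motifs differ at 1 base, and a match of 1 cannot share bases with a match of the other. They occurred in 3.42% and 2.67% of all windows, and 5.97% held at least 1 of them. Receptor windows on chromosome 8, where ADGRA2 and ADGRB1 lie, were left out of the search. The shares over all windows had no such exclusion. Elsewhere, windows were found for 19 of the receptors, 35 in all. For the 6 tested receptors among them (ADGRA3, ADGRB2, ADGRF1, ADGRG1, ADGRG6 and ADGRV1), none of 8 windows held a match. The single match, TATTTAC 248 bases before a start site of ADGRF3, lay at a gene with 4 counts in all.

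ADGRF1, an adhesion receptor that responds to the docosahexaenoic acid derivative synaptamide and couples to the cAMP-raising G protein, had the lowest fold change of the 12 tested receptors. It was measured at 33.9 and 36.0 CPM in empty vector libraries and at 4.37 and 3.76 CPM in FOXD2 libraries. Both FOXD2 libraries were far below both empty vector libraries, an 8.58-fold difference (log2 fold change -3.10, SE 0.14, edgeR adjusted p = 2.3e-26). Its fold change ranked 9 from the lowest among the 14470 tested genes. The gene (ENSG00000153292) spans chr6:46997703-47042363 on the minus strand in GENCODE release 29 on GRCh38.

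ADGRA3, a receptor linked to planar cell polarity, was measured at 107.2 and 110.5 CPM with the empty vector and at 38.7 and 42.6 CPM with FOXD2. It was 2.68-fold lower (log2 fold change -1.42, SE 0.08, edgeR adjusted p = 9.8e-23). ADGRG6, needed for myelination by Schwann cells and able to raise cAMP, was measured at 98.2 and 95.4 CPM with the empty vector and at 40.2 and 43.4 CPM with FOXD2. Again the groups lay well apart, with a 2.32-fold lower level (log2 fold change -1.21, SE 0.08, edgeR adjusted p = 9.7e-20). Fold changes as low as those of ADGRA3 and ADGRG6 were uncommon, at ranks 201 and 284 from the lowest.

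The fourth receptor that fell, ADGRA2, acts with RECK as a co-receptor for WNT7 ligands in brain endothelium. Its values were 11.1 and 13.6 CPM with the empty vector and 8.67 and 8.40 CPM with FOXD2 (log2 fold change -0.54, SE 0.15, edgeR adjusted p = 0.0026). The groups did not overlap, but the empty vector libraries differed from each other by about as much as the lower of them differed from FOXD2. Without empty vector replicate 2 the adjusted p was 0.12, and with DESeq2 it was 0.084.

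**Figure D1:**
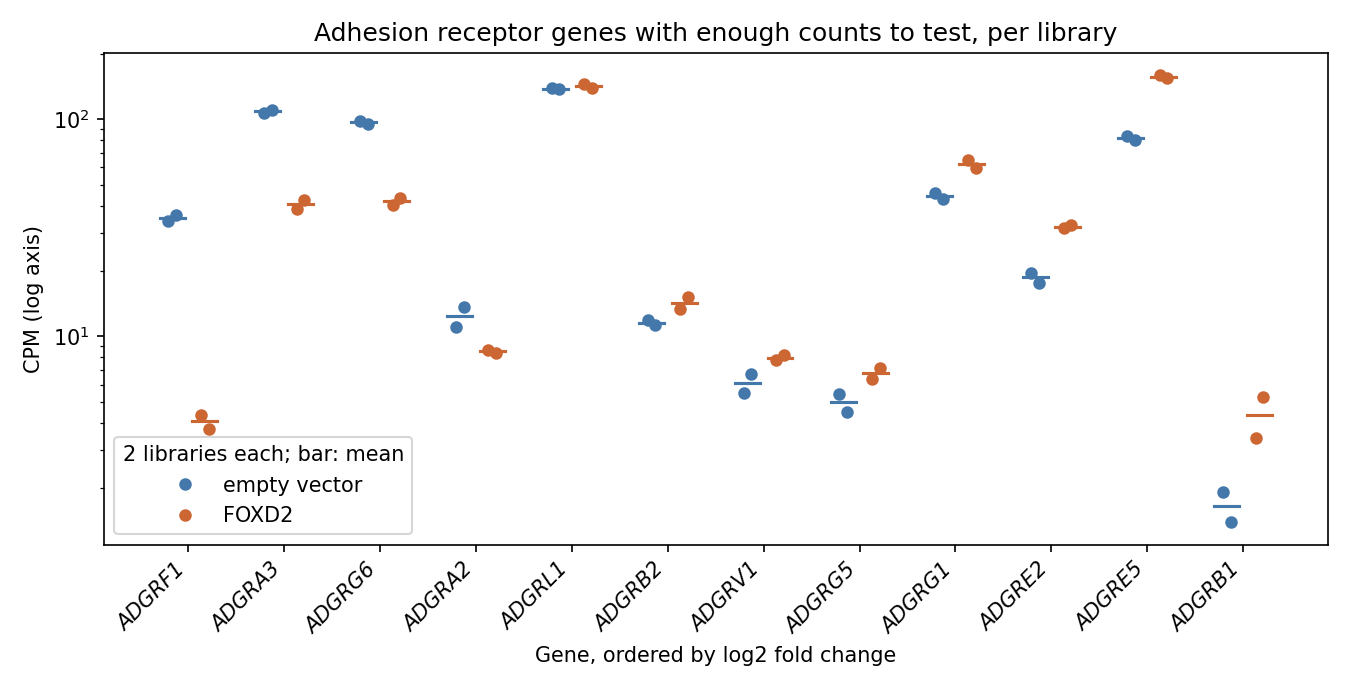
CPM on a log axis of the 12 tested adhesion receptor genes in each library, ordered from the lowest to the highest log2 fold change, with 2 points per group and a bar at their mean. ADGRF1, ADGRA3 and ADGRG6 sit far lower in the FOXD2 libraries, ADGRE5 and ADGRE2 sit higher, and only the points of ADGRL1 overlap between groups.

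ADGRE5, known as CD97, is a receptor of leukocytes and many carcinoma cells that binds the complement regulator CD55. It rose from 83.5 and 79.9 CPM to 159.0 and 154.2 CPM, a 1.92-fold difference (log2 fold change 0.94, SE 0.07, edgeR adjusted p = 9.9e-18). Its close relative ADGRE2, which binds the glycosaminoglycan dermatan sulfate, rose from 19.7 and 17.7 CPM to 31.5 and 32.5 CPM (log2 change 0.78 with SE 0.11, edgeR adjusted p = 1.1e-08). Each FOXD2 library was above each empty vector library for both genes. The pair has near-identical EGF-like domains, so reads may be shared between them. The posterior standard deviation that RSEM gives for their counts was the same for both genes in each library, between 2.18 and 3.79 counts, where the smaller count of the pair was 267 to 491.

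ADGRG1, or GPR56, binds collagen III and transglutaminase 2 and couples to G proteins that act on the cytoskeleton. Its level was 45.7 and 42.8 CPM with the empty vector and 64.8 and 59.3 CPM with FOXD2, 1.40-fold higher (log2 fold change 0.49, SE 0.08, edgeR adjusted p = 1.2e-06). ADGRB1, which recognises phosphatidylserine on dying cells and signals through ELMO and DOCK1, was low: 27 and 21 counts (1.93 and 1.39 CPM) against 53 and 77 counts (3.40 and 5.26 CPM). Its rise of 1.38 on the log2 scale (SE 0.30, edgeR adjusted p = 9.6e-05) went with unequal FOXD2 libraries. On the per-length scale its groups overlapped, at 1.53 and 0.60 TPM (the authors' level per transcript length) against 1.14 and 2.81 TPM, and it did not pass with limma on log2(TPM + 1) (adjusted p = 0.31).

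The other 4 tested receptors did not pass. ADGRL1, or latrophilin 1, a receptor of teneurins and FLRT proteins, had the highest CPM of the family in empty vector cells, 139.6 and 136.9, and 144.9 and 139.6 CPM in FOXD2 cells. The groups overlapped, and 2 SE on either side of its log2 fold change of 0.04 ran from -0.09 to 0.17 (edgeR adjusted p = 0.61). ADGRB2, ADGRG5 and ADGRV1 had log2 fold changes of 0.30 (SE 0.14), 0.45 (SE 0.20) and 0.39 (SE 0.18), with edgeR adjusted p of 0.062, 0.055 and 0.071. ADGRV1, the giant receptor affected in Usher syndrome, was measured at 5.51 and 6.69 CPM with the empty vector and 7.77 and 8.20 CPM with FOXD2, ADGRG5 at 5.44 and 4.50 against 6.36 and 7.17 CPM, and ADGRB2 at 11.9 and 11.3 against 13.4 and 15.2 CPM. In each of these 3 genes the FOXD2 libraries were above the empty vector libraries. For 11 of the 12 tested receptors the groups did not overlap in CPM, as for 76.1% of all tested genes. ADGRV1 overlaps the antisense RNA LUCAT1, which had 24 and 12 counts with the empty vector and 93 and 90 with FOXD2, and since the strand setting of the counting is not given in the sources used here, their reads cannot be told apart with certainty. The same holds for ADGRA2 and BRF2 on the opposite strand (173 and 196 against 180 and 136 counts), for ADGRE2 and ZNF333 (75 and 110 against 91 and 75 counts) and for ADGRL1 and ADGRL1-AS1, which had at most 15 counts in a library.

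**Figure D2:**
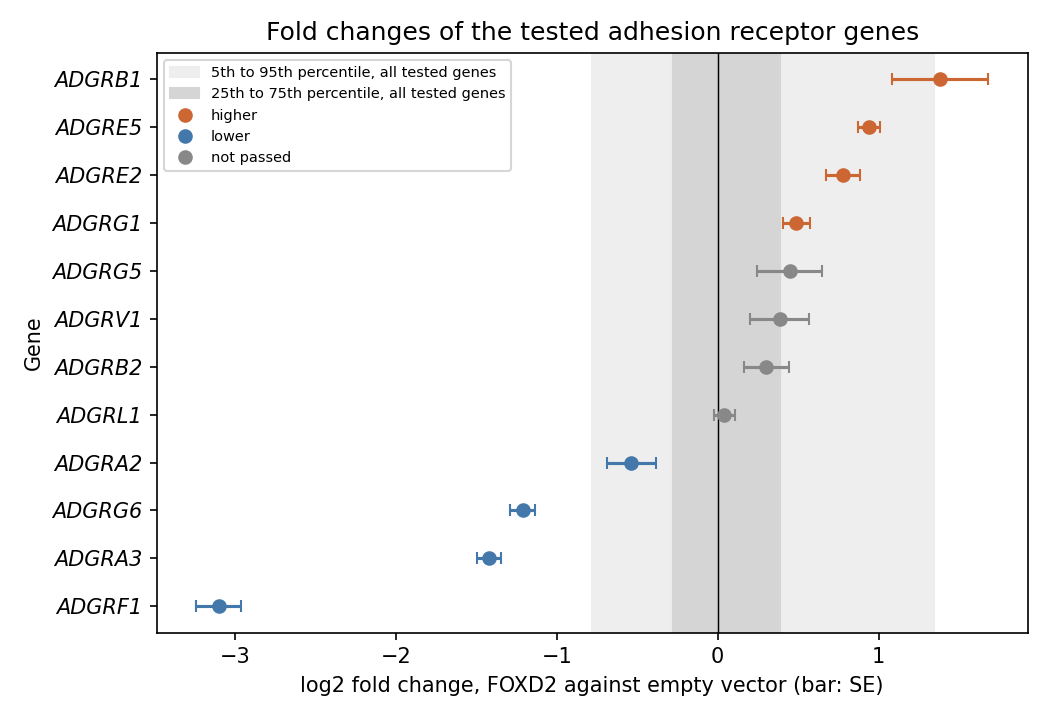
Log2 fold change of FOXD2 against empty vector for the 12 tested adhesion receptor genes, with bars of 1 SE, over a dark band from the 25th to the 75th and a light band from the 5th to the 95th percentile of all 14470 tested genes. ADGRF1 at -3.10, ADGRA3 at -1.42 and ADGRG6 at -1.21 lie below the light band. ADGRB1 at 1.38 lies just above the band's upper edge at 1.35, and ADGRL1 lies near 0.

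The remaining 17 receptors had at most 9 counts in any library and were not tested. Of these, 7 had no count in any library: ADGRA1, ADGRB3, ADGRE3, ADGRF5, ADGRG2, ADGRL3 and ADGRL4. A count of 0 allows up to 3 counts, or 0.193 to 0.215 CPM in these libraries, for counting error only. In FOXD2 cells 3 receptors appeared at a low level. ADGRF2 had 0 and 0 counts with the empty vector and 6 and 5 with FOXD2. That is 3.53-fold higher if the empty vector group is set at 3 counts. ADGRG4, a receptor of enteroendocrine cells, had 0 and 0 against 7 and 7 counts, 4.49-fold higher on the same setting. Both folds take the FOXD2 counts as free of error, so they are not lower limits of the ratio. ADGRF4 had 0 and 1 against 9 and 6 counts, a ratio of 14.4 with an exact 95% interval of 2.22 to 608. When no filter on low counts was applied, ADGRF2, ADGRF4 and ADGRG4 passed edgeR's test as higher (adjusted p = 0.012, 0.013 and 0.0028). DESeq2 gave these genes no adjusted p, and their unadjusted DESeq2 p was 0.038, 0.060 and 0.017. ADGRL2 had 0 and 0 against 3 and 1 counts, ADGRF3 had 3 and 1 against 0 and 0, and ADGRD1 had 7 and 1 against 4 and 3, a ratio of 0.84 (interval 0.26 to 2.66). ADGRD2, ADGRE1, ADGRG3 and ADGRG7 had at most 2 counts in each group.

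Compared per length, the order of the receptors changed. In empty vector cells ADGRE5 (38.9 ± 1.77 TPM, SD, n = 2), ADGRL1 (35.3 ± 0.16 TPM) and ADGRA3 (35.2 ± 0.87 TPM) were the highest, and ADGRL1 and ADGRA3 overlapped. ADGRG1 (22.5 ± 0.35 TPM) was well below these. ADGRG6 (20.9 ± 1.39 TPM) and ADGRF1 (17.5 ± 2.60 TPM) lay close behind it, with no overlap (22.2 and 22.7, 21.9 and 19.9, and 19.4 and 15.7 TPM). In FOXD2 cells ADGRE5 stood alone at 87.8 ± 1.65 TPM, followed by ADGRL1 (37.7 ± 1.27 TPM), ADGRG1 (28.2 ± 2.42 TPM) and ADGRA3 (15.1 ± 0.39 TPM). ADGRE2 (9.26 ± 0.04 TPM) and ADGRG6 (9.13 ± 0.04 TPM) were close to each other there, and ADGRF1 was at 2.08 ± 0.30 TPM. ADGRE5 made up 21.0% and 20.6% of the family's summed TPM in empty vector libraries and 42.3% and 43.6% in FOXD2 libraries. The share of ADGRA3 went from 18.1% and 19.6% to 7.21% and 7.52%, and that of ADGRF1 from 10.1% and 8.57% to 0.91% and 1.12%. The summed level was 191.3 and 182.9 TPM in empty vector libraries and 204.9 and 203.9 TPM in FOXD2 libraries. In CPM, which is not divided by length, the sum was 564.5 and 557.0 against 525.0 and 521.2, so the direction of the sum depends on the scale.

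**Figure D3:**
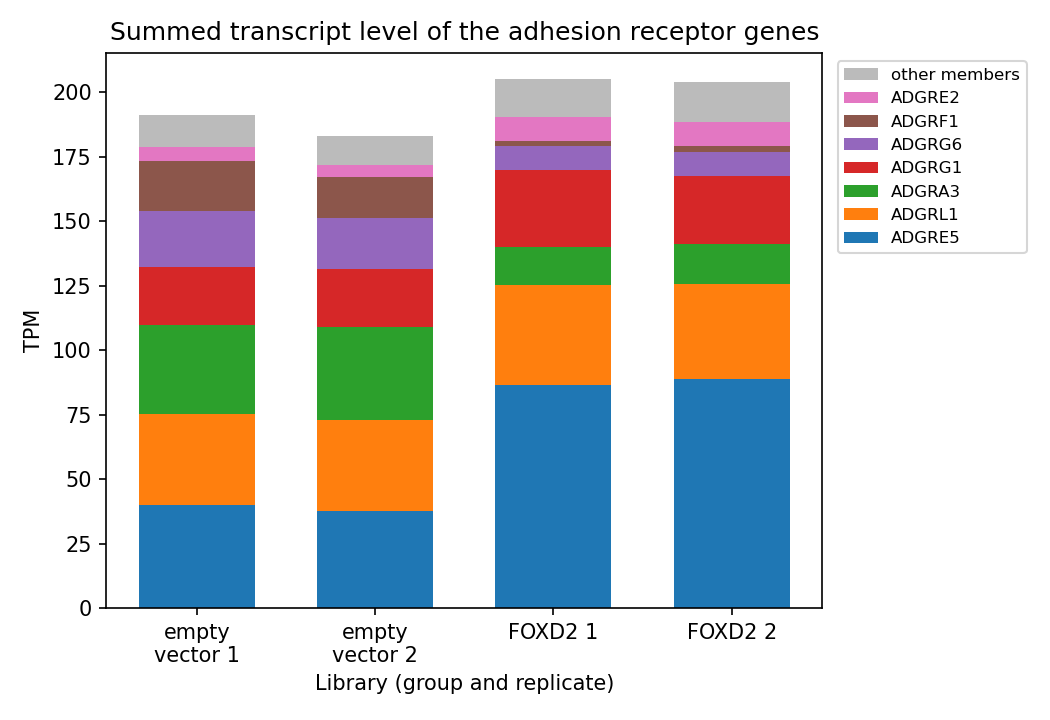
Summed TPM of the 29 adhesion receptor genes in each library, stacked by gene, with the genes outside the 7 highest of empty vector cells in grey. The total is between 182.9 and 204.9 TPM in every library, while the ADGRE5 segment grows to 42.3% and 43.6% of it in the FOXD2 libraries and the ADGRA3, ADGRG6 and ADGRF1 segments shrink.

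The tables also give for each gene a length in bases that is the mean of its transcripts weighted by their estimated abundance, so it moves when the mix of transcripts moves. For ADGRE5 this length was 2870 and 2848 bases in empty vector libraries and 2554 and 2472 bases in FOXD2 libraries. For ADGRA3 it was 4168 and 4041 against 3555 and 3835 bases, and for ADGRG1, with 79 annotated transcripts in the tables, 2837 and 2551 against 2973 and 3132 bases. The lengths of the groups did not overlap for 5 of the 12 tested receptors (also ADGRE2 and ADGRG5), and for 34.4% of all tested genes. ADGRF1 varied as much within a group as between groups, at 2447 and 3066 against 3190 and 2353 bases. These lengths are given as values without a test.

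Several receptor genes lie side by side, in 3 stretches, and each stretch held receptors with different calls. On chromosome 6, ADGRF5, ADGRF1, ADGRF2 and ADGRF4 lie between 46852512 and 47722021. Within this stretch ADGRF1 fell, ADGRF2 and ADGRF4 had counts almost only in FOXD2 libraries, and ADGRF5 had no count. ADGRF2 and ADGRF4 overlap on the same strand, so their few counts are uncertain as to gene. Of the 10 other tested genes within 1 Mb of this cluster, 3 were higher and 2 lower. On chromosome 19, between 14147743 and 14778541, ADGRE5 and ADGRE2 rose, ADGRL1 between the same bounds did not pass and ADGRE3 had no count. Of the 37 other tested genes around them, 16 were higher and 7 lower. On chromosome 16, between 57542421 and 57689378, ADGRG1 rose by 0.49 on the log2 scale (SE 0.08). ADGRG5 did not pass but had a similar change of 0.45 (SE 0.20), and ADGRG3 had 2 counts in all. Of 32 other genes there 8 were higher and 11 lower. Over all tested genes 27.2% were higher and 26.4% lower, and no test of the neighbours was made.

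Ligands and surface partners of the receptors were read from the same test: of 31 listed, 17 were tested, 6 were higher and 5 lower, with a median log2 fold change of -0.01. Over all tested genes 27.2% were higher and 26.4% lower. For ADGRE5, the ligand CD55 rose by 0.63 on the log2 scale (SE 0.08), from 47.3 to 73.4 CPM. THY1, another of its ligands, had no count. For ADGRG1, the partner TGM2 rose by 1.90 (SE 0.11), from 11.7 to 43.6 CPM, and COL3A1 was too low to test. For ADGRG6, the prion protein gene PRNP rose by 0.54 (SE 0.06), the laminin chain LAMA2 stood at -0.02 and did not pass, the laminin chain LAMB1 fell by 0.27 (SE 0.08), and the collagen IV genes COL4A1 and COL4A2 were under 0.2 CPM. For ADGRA2, the ligands WNT7A and WNT7B rose by 1.99 (SE 0.50) and 0.88 (SE 0.12), and RECK had -0.35 (SE 0.23) and did not pass. WNT7A, at 4 and 7 counts with the empty vector and 16 and 30 with FOXD2, passed the count filter through the FOXD2 libraries alone. For the latrophilins, the teneurin TENM3 rose by 2.01 (SE 0.36), to a mean of 3.21 CPM, and FLRT3 fell by 1.49 (SE 0.51), to 0.47 CPM. FLRT3 had 27 and 11 against 6 and 8 counts and passed the filter through the empty vector libraries alone. TENM3, at 13 and 10 counts with the empty vector and 51 and 46 with FOXD2, needed the FOXD2 libraries to pass it. The Nogo receptors RTN4R and RTN4RL2, partners of the ADGRB receptors, fell by 0.28 each, and PTK7, a partner of ADGRD1, fell by 0.27. The edgeR adjusted p of these called partners was at most 0.037.

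Among transducers, 10 G protein alpha subunits were tested, of which 7 were lower and 3 did not pass (edgeR adjusted p under 0.05), with a median log2 fold change of -0.26, beside 26.4% lower over all genes. GNAI1, an inhibitor of adenylyl cyclase, fell by 2.14 (SE 0.07), from 166.7 to 37.9 CPM, and GNAZ of the same class by 1.06 (SE 0.16). GNA12 and GNA13, which link ADGRE5 and ADGRG1 type receptors to the cytoskeleton, fell by 0.46 (SE 0.08) and 0.25 (SE 0.07), and GNAQ and GNAI2 by 0.29 and 0.27. GNAS, which raises cAMP, was at 0.12 (SE 0.05) without passing (edgeR adjusted p = 0.057), and GNA11 (0.07) and GNAL (-0.15) did not pass either. Of 12 tested cAMP effectors 4 were higher and 4 lower (median 0.08). RAPGEF3 rose by 2.34, but with 13 and 9 empty vector counts it needed the FOXD2 libraries to pass the count filter. The adenylyl cyclases ADCY6 and ADCY9 rose by 0.49 and 0.34, and ADCY3 fell by 0.56. Of the protein kinase A subunits, PRKACB and PRKAR2B fell by 2.15 and 1.28 and PRKACA rose by 0.28. PRKAR1A, PRKAR1B and PRKAR2A did not pass. Of 13 tested small GTPases and their effectors 4 were higher and 4 lower (median -0.02): RHOB rose by 1.39, ELMO3 by 0.55, and the exchange factors ARHGEF1 and ARHGEF11 by 0.43 and 0.36, ROCK2 fell by 0.61 and RAC1 by 0.43, and DOCK1, the partner of ELMO behind ADGRB1, fell by 0.27. Of 7 arrestins and receptor kinases 2 were higher and 2 lower (median -0.07), with GRK4 at 0.68, ARRB2 at -0.35, GRK3 at -0.32 and ARRB1 at 0.26.

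Adhesion and related receptors outside the ADGR symbols were few. Of the 3 CELSR genes, the cadherin-like adhesion receptors of planar polarity, CELSR3 rose by 0.50 (SE 0.13) and CELSR1 and CELSR2 had -0.09 and 0.02 and did not pass. Of 15 secretin-family receptors, the peptide hormone receptors nearest in sequence, 3 were tested and 2 rose: GIPR by 3.67 (SE 0.19), from 1.58 to 20.2 CPM, and VIPR1 by 1.08 (SE 0.17). With 3 genes tested, that count is not read against the 27.2% of all genes that were higher.

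**Figure D4:**
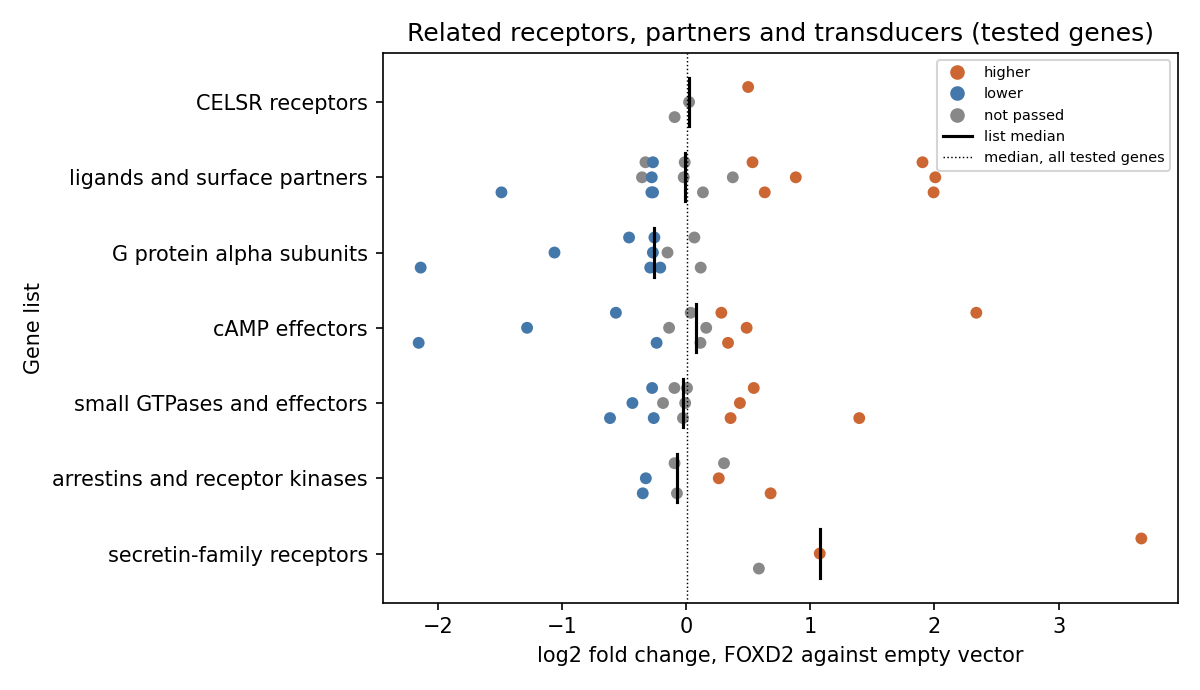
Log2 fold change of every tested gene in 7 lists of related receptors, partners and transducers, coloured by its call, with a black line at each list's median and a dotted line at the median of all tested genes. The G protein alpha subunits have a median of -0.26, with 7 of 10 called lower, and the other large lists hold calls in both directions around medians near 0.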

How the data were processed

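RNA of 2 empty vector and 2 FOXD2 libraries was analysed, grouped by the sample titles. The submitters' processing notes name RSEM 1.2.31, STAR 2.7.2b and GRCh38; the annotation release and the strand setting are not given in the sources used here. Per the file headers, the authors' tables hold RSEM expected counts, which share multi-mapping reads among genes, TPM and FPKM (the deposited FPKM was not tested). Expected counts were rounded. Symbols were matched for 60370 of 60683 gene identifiers and gene classes and coordinates for 58496 from GENCODE release 29.

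Genes passing filterByExpr were tested in edgeR 4.0.16 (R 4.3.3) with TMM factors, a robust quasi-likelihood fit, intercept and group, and Benjamini-Hochberg adjustment over all 14470 genes at 0.05. The fit was tested on simulated data. SE is the absolute log2 fold change over the root of F. Between groups the chi-square per degree of freedom was at least 50.3, within groups at most 3.91 and at least 2.52, so no replicates agreed within sampling noise. Alternatives used DESeq2 1.42.0, limma 3.58.1, other filters, a replicate block and left-out libraries. All receptors were named. Of the lists, up to 6 called genes with the largest changes, known partners and the tested protein kinase A subunits were named. Members and lists were chosen with earlier results of these data known. Sequences are from RefSeq (GRCh38.p14). One marker list is not reported here.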

Additional observations from a re-analysis of the deposited data

How the results depend on the processing

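The falls of ADGRF1, ADGRA3 and ADGRG6 and the rises of ADGRE5, ADGRE2 and ADGRG1 kept their direction and passed under each of 12 alternatives. Their log2 fold changes ran from -3.22 to -2.58, -1.49 to -1.17, -1.27 to -1.11, 0.90 to 1.17, 0.70 to 0.91 and 0.31 to 0.55. ADGRA2 did not pass with DESeq2 (adjusted p = 0.084), limma on log2(TPM + 1) or log2(TPM + 0.1) (0.24 and 0.25) or without empty vector replicate 2 (0.12). ADGRB1 did not pass with limma on either TPM scale (0.31 and 0.32). ADGRB2 passed as higher without FOXD2 replicate 1 (0.033). Without a low-count filter 7 receptors were higher, since more genes were tested. Over all genes, 3929 were higher and 3816 lower in the main fit, and DESeq2 placed 2414 higher and 2801 lower. Limma placed 2771 higher and 2366 lower on log2(TPM + 1), and 2709 higher and 2322 lower on log2(TPM + 0.1). The cause of these smaller counts was not tested. Leaving out 1 library, on the assumption that a lone sample varies as the other group does, gave 4 to 5 receptors higher and 3 to 4 lower, 3146 to 3579 genes higher and 3046 to 3650 lower, and a FOXD2 log2 fold change of 7.16 to 7.49.

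With the replicate number as a block, 4 receptors were higher and 4 lower, and 3680 genes were higher and 3494 lower. The labels give no link between libraries with the same number beyond that number (correlation of deviations from the group mean -0.10). Whether they shared a culture or batch is not stated. Depth limits the 17 receptors left out by the filter, of which 7 had no count at all. Without it ADGRF2, ADGRF4 and ADGRG4 passed in edgeR but had no adjusted p with DESeq2.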
